A study of Mus musculus with 16 samples.

Results

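The mouse genes Olfr828 to Olfr986 encode odorant receptors and lie on chromosome 9 in 2 separate runs. They were taken by symbol, as genes whose symbol runs from Olfr828 to Olfr986 with no suffix, each read from 1 probe set that carries exactly 1 gene symbol. This choice by symbol used no measured value and found 108 genes among 1091 odorant receptor genes and 19505 genes measured. All 108 are protein coding, none was read by more than 1 probe set, and all carry a MOR number, the older mouse receptor name whose leading number marks a subfamily. They fall into 27 subfamilies, and each of these numbers is one of class II, the receptor class to which most odorant receptors of land vertebrates belong. Olfr856-ps1, Olfr911-ps1 and Olfr947-ps1, whose suffix marks pseudogenes, were left out.

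The study sorted cells by the S100a5-tauGFP reporter, in which GFP reports S100a5, the gene of a calcium-binding protein that olfactory sensory neurons make more of when they are active. In all, 24 reporter mice of both sexes and 7 to 12 weeks of age stayed 1 to a chamber for 40 h in clean air flowing at 3.1 L/min. From 26 h on they received either filtered air, called vehicle, or octanol, a fatty alcohol odorant, for 10 s every 20 min. The olfactory mucosa of 3 mice was then sorted into GFP+ and GFP- cells, and 50 to 100 ng of total RNA from each fraction went onto a Clariom S array. This gave 4 groups of 4 arrays, namely vehicle GFP+, vehicle GFP-, octanol GFP+ and octanol GFP-, and every mouse carried the reporter. The sources used here do not give strain or copy number of the reporter. The GFP- fraction is defined only by lack of reporter signal, so it holds other neurons and all other cells of the mucosa. Since the RNA is from sorted pools, fewer neurons that chose a receptor and less receptor RNA per neuron cannot be told apart. All p-values cover the spread between pools of 3 mice.

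Each mature olfactory sensory neuron is known to express a single odorant receptor gene, chosen from one chromosomal copy out of many clusters spread over the genome. The receptor is a membrane protein that couples in the cilium to a G protein, adenylyl cyclase and a cyclic nucleotide-gated channel, and its RNA makes up a large share of what identifies the neuron. Neurons of one receptor send their axons to the same glomeruli, and the tissue zone in which a receptor may be chosen, from dorsal to ventral, is a property of the gene. The study's title calls this design the Kentucky assay, which reads receptor RNA in neurons sorted by an activity reporter.

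Signals are log2 values as the authors deposited them, and a difference of 1 is a doubling. Background was set at 6.32, under which 95% of 319 vomeronasal receptor genes had their mean. S100a5 averaged 16.90 ± 0.11 in vehicle GFP+ and 16.08 ± 0.22 in vehicle GFP- arrays (SD, n = 4), so the reporter's own gene was higher in the sorted cells. Omp, which marks mature sensory neurons, averaged 18.18 and 18.11. The highest signal on a vehicle array was 18.60 to 18.69. Omp thus lay near the top of the scale, and its values do not measure the share of mature neurons. Of 12 mature neuron markers 5 were higher and 0 lower in vehicle GFP+ cells, and of 10 immature neuron markers 0 were higher and 7 lower (limma, adjusted p under 0.05). The mean signal of the immature list ran from 11.25 to 11.33 in vehicle GFP+ arrays and from 13.02 to 13.37 in vehicle GFP- arrays. Neutrophil (6 of 6), myeloid (6 of 6), lymphoid (3 of 3 measured) and sustentacular (4 of 5) markers were lower in GFP+ cells as well. The part of these markers in the receptor differences was not tested.

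Signals of the 108 receptors covered a wide range. Group means in vehicle GFP+ cells ran from 4.09 to 13.50 with a median of 9.36, and in vehicle GFP- cells from 3.80 to 13.71 with a median of 8.93. The mean over all 16 arrays lay above background for 95 of the 108. On single arrays, 73 receptors were above background on all 16, 29 on some and 6 on none, namely Olfr834, Olfr862, Olfr866, Olfr891, Olfr917 and Olfr936. The spread between arrays of a group was small beside this range, with a median SD of 0.42 in vehicle GFP+ and 0.35 in vehicle GFP- arrays.

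The highest signals came from different genes in the 2 fractions, though a probe set's signal also depends on its probes and levels of different genes were not compared. In vehicle GFP+ arrays the highest was Olfr893 (MOR170-11), at 13.58, 13.59, 13.50 and 13.34 in replicates 1 to 4, followed by means of 13.24 for Olfr835, 13.23 for Olfr958, 13.23 for Olfr851 and 13.02 for Olfr849. In vehicle GFP- arrays the highest was Olfr972 (MOR171-17), at 13.48, 13.65, 13.51 and 14.21, followed by means of 12.81 for Olfr878, 12.31 for Olfr935, 12.12 for Olfr969 and 12.09 for Olfr873.

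Receptor signals in GFP+ and GFP- cells after clean air alone were compared first. In vehicle pools 56 of the 108 receptors were higher and 20 lower in GFP+ than in GFP- cells, and 32 did not pass (limma with the pool as a block, Benjamini-Hochberg adjusted p under 0.05 over all genes). Over all genes tested, 14.7% were higher and 13.5% lower (28.2% in either direction). With each array centred on the median of all genes, 88 of the 108 passed (81.5%), near the 75.6% of all genes that then passed. Of the other 983 odorant receptors, 414 were higher and 234 lower. The median difference was 0.78 for the 108, 0.41 for the other receptors and 0.13 for all genes. Single receptors ran from -4.80 to 3.48. The 4 GFP+ values did not overlap the 4 GFP- values for 52 higher and 21 lower receptors, against 14.6% and 13.2% of all genes, and 83 receptors differed in the same direction in all 4 pools.

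**Figure D1:**
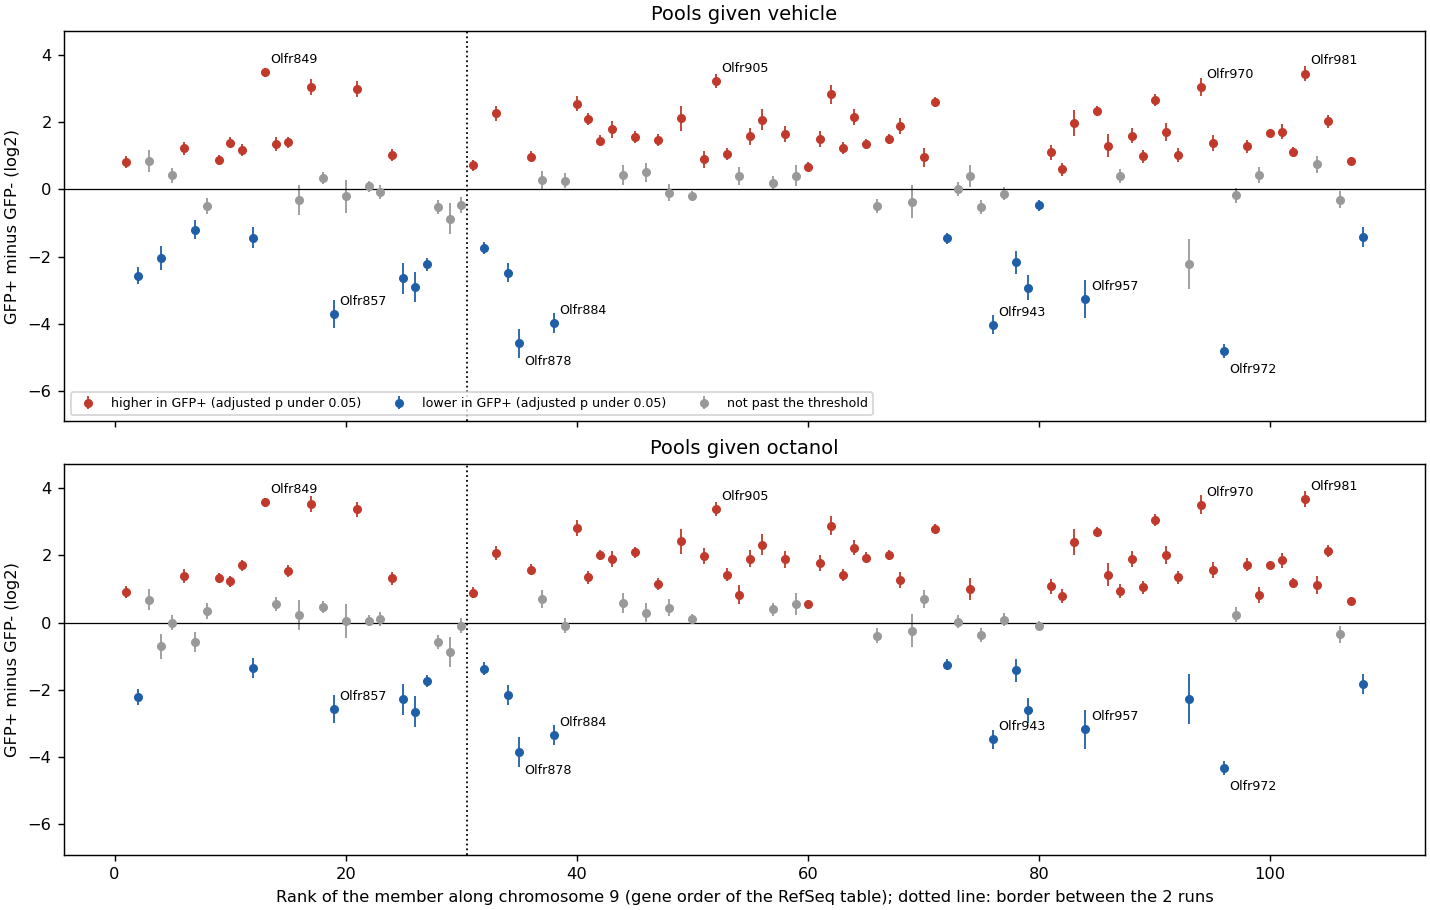
Difference between GFP+ and GFP- cells (log2, points, with the standard error as bars) for the 108 receptors in their order along chromosome 9, after vehicle (top) and after octanol (bottom). Red receptors were higher and blue ones lower in GFP+ cells at an adjusted p under 0.05, grey ones did not pass, and the dotted line divides the 30 receptors from Olfr828 to Olfr873 from the 78 from Olfr874 to Olfr986.

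Olfr849 (MOR151-1) had the largest rise. Its signal was 13.14, 13.16, 12.79 and 13.00 in the vehicle GFP+ arrays and 9.82, 9.47, 9.28 and 9.61 in the matching GFP- arrays. The 2 groups of arrays were far from overlapping, and the difference was 3.48 (SE 0.14, adjusted p = 1.2e-07, limma), or 11.1-fold.

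Olfr981 (MOR223-8) came next, at 11.31, 8.92, 10.02 and 10.89 in vehicle GFP+ arrays against 7.25, 6.18, 7.02 and 6.91 in GFP- arrays. The GFP+ arrays varied more than for most receptors, yet the lowest of them was still above the highest GFP- array. With the 1 GFP- value under background raised to it, Olfr981 was at least 10.6-fold higher (difference 3.44, SE 0.24, adjusted p = 3.12e-06).

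Olfr970 (MOR171-16) measured 10.70, 10.89, 10.03 and 10.35 in vehicle GFP+ arrays and 7.15, 8.17, 6.55 and 7.92 in GFP- arrays. Olfr860 (MOR146-2) measured 11.39, 10.36, 10.65 and 10.89 against 8.32, 8.13, 7.06 and 7.84. Neither pair of groups overlapped, and the differences were 3.04 (SE 0.28) and 2.98 (SE 0.23). Olfr934 (MOR224-6) was the steadiest of these, with 10.50, 10.63, 9.72 and 10.23 against 7.99, 7.95, 7.10 and 7.66, so that its 4 pool differences lay between 2.51 and 2.67. The other rises among the 10 largest were 3.21 for Olfr905, 3.05 for Olfr854, 2.83 for Olfr919, 2.65 for Olfr965 and 2.55 for Olfr887. GFP- arrays under background make Olfr905 at least 8.41-fold, Olfr854 at least 7.83-fold and Olfr887 at least 5.82-fold higher.

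The falls reached further than the rises. Olfr972 measured 9.29, 9.36, 8.13 and 8.86 in vehicle GFP+ arrays against the GFP- values given above, and was 27.9-fold lower (difference -4.80, SE 0.21, adjusted p = 2.03e-07). Its level in GFP+ cells stayed above background on every array. All 4 pools agreed, with differences from -4.19 to -5.38.

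Olfr878 (MOR163-1) measured 7.97, 10.11, 7.44 and 7.38 in vehicle GFP+ arrays and 13.17, 12.48, 12.82 and 12.75 in GFP- arrays. Replicate 2 stood well above the other GFP+ arrays, but the groups did not overlap, and the difference was -4.58 (SE 0.43, adjusted p = 2.98e-05). Without vehicle replicate 2 the difference was -5.32.

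Olfr943 (MOR171-44) was under background on all 4 vehicle GFP+ arrays, at 5.61, 5.32, 5.10 and 6.23, and at 9.23, 10.01, 9.64 and 9.45 on the GFP- arrays. The fall was at least 9.61-fold (fitted difference -4.02, SE 0.28, adjusted p = 3.23e-06). Olfr884 (MOR162-11) measured 6.88, 8.18, 6.21 and 6.20 against 10.94, 11.06, 10.73 and 10.65, and with 2 GFP+ arrays under background it was at least 15.1-fold lower. Olfr857 (MOR146-8), also under background on all 4 vehicle GFP+ arrays, was at least 8.18-fold lower. The GFP- groups of these 3 receptors were above background on every array.

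The remaining members of the 10 largest fitted falls were Olfr957 (-3.26), Olfr948 (-2.92), Olfr869 (-2.90), Olfr868 (-2.65) and Olfr829 (-2.57). GFP+ arrays under background make Olfr957 at least 7.14-fold, Olfr948 at least 6.70-fold and Olfr869 at least 5.86-fold lower, so the order of these falls is not settled. Olfr957 (MOR171-12) measured 6.52, 9.37, 5.18 and 5.75 in vehicle GFP+ arrays and 10.09, 9.77, 9.89 and 10.11 in GFP- arrays, and without vehicle replicate 2 its difference was -4.22. Over the 20 receptors that fell, the median group mean was 6.88 in vehicle GFP+ and 9.63 in vehicle GFP- arrays. Over the 56 that rose it was 10.14 and 8.08. The GFP+ mean of a receptor that fell therefore often lay near background, which limits how large a measured difference can be.

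**Figure D2:**
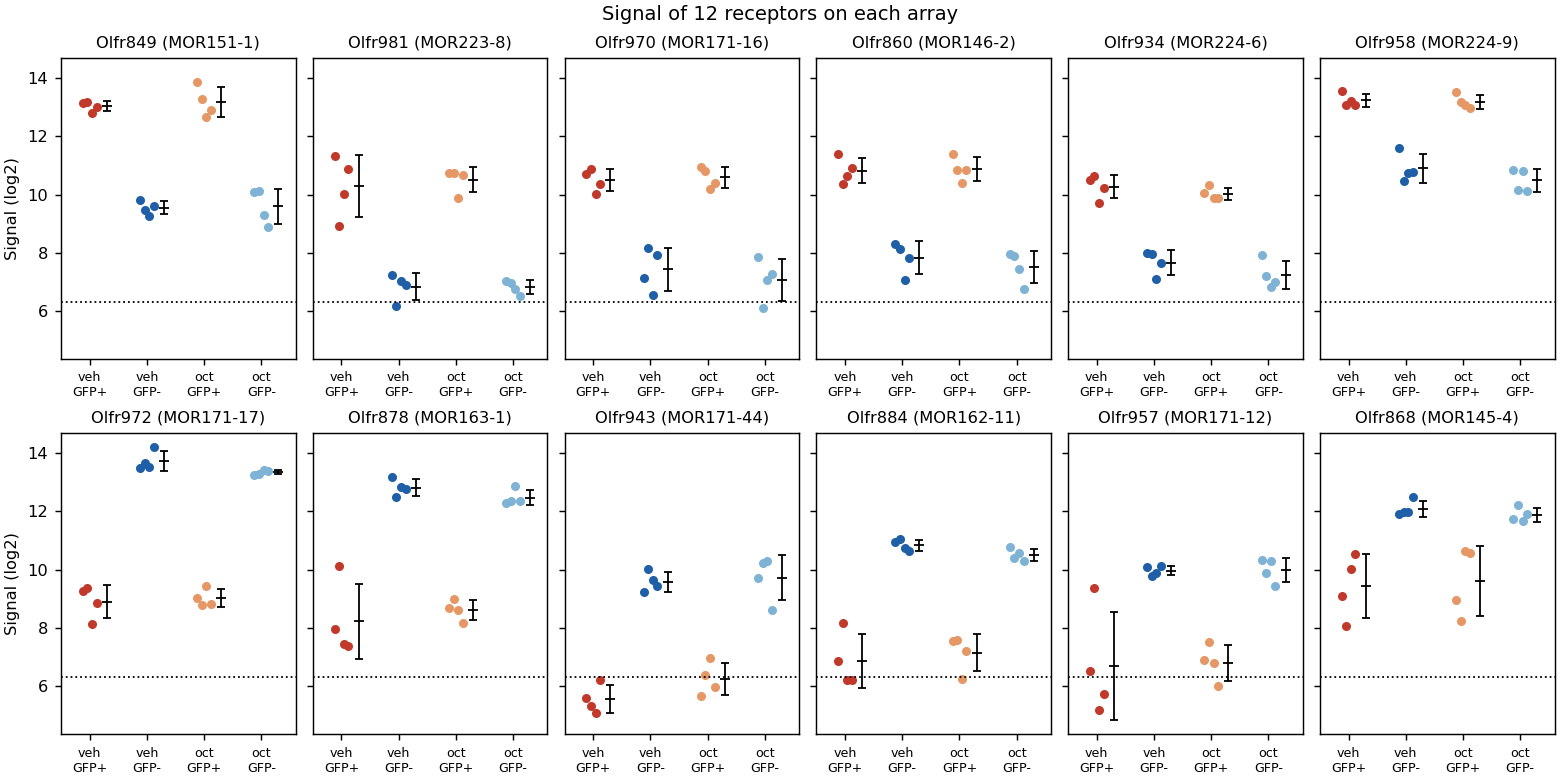
Log2 signal of 12 receptors on each of the 16 arrays (points, replicates 1 to 4 from left to right within a group), with the mean and SD of the 4 arrays of a group as bars and the background level of 6.32 as a dotted line. The upper 6 receptors were higher in GFP+ than in GFP- cells after vehicle (veh) and after octanol (oct), and the lower 6 were lower.

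The receptors lie in 2 runs of neighbouring genes in the gene order of the RefSeq table. The run of 30 from Olfr828 to Olfr873 lies between Muc16 and Zfp560, and the run of 78 from Olfr874 to Olfr986 between Panx3 and Zfp202. The shorter run gave 11 higher and 8 lower of 30 after vehicle, with a median difference of 0.0017. The longer run gave 45 higher and 12 lower of 78, with a median of 0.96. The shares among all genes tested were 14.7% and 13.5%. In each of the 8 pools the median difference of the longer run exceeded that of the shorter, by 0.79, 1.32, 0.75 and 0.49 in the vehicle pools and by 1.01, 1.01, 0.67 and 0.70 in the octanol pools. This gap between runs is taken within a pool, so scaling of whole arrays cannot move it, and it is given as a description without a test. The longest stretch of members without a lower call after vehicle was picked from these values, so its lack of lower calls is by choice. It ran from Olfr885 to Olfr934, and its 33 members held 23 higher and 10 that did not pass. Some of the latter had negative differences, such as Olfr902 (-0.21). Another 21 odorant receptor genes of chromosome 9 have numbers outside the range. Of these, 13 were higher and 4 lower after vehicle, among them the acetophenone receptor Olfr160 (M72), at 3.16. The median difference of these 21 was 1.10 after vehicle and 1.44 after octanol, above the 0.78 and 0.86 of the 108.

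Some subfamilies held receptors of both directions and others of 1. MOR171 is the largest, with 27 members, of which 13 were higher and 7 lower after vehicle, with differences from -4.80 for Olfr972 to 3.04 for Olfr970. MOR224 gave 6 higher and 0 lower of 8 (median 1.29), MOR165 gave 5 and 0 of 7 (median 1.58), and MOR223 gave 4 and 0 of 5 (median 1.67). MOR162 gave 7 higher of 10, among them Olfr887 (2.55) and Olfr901 (2.11), and 1 lower, Olfr884 (-3.97).

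MOR145 had no member higher and 2 of 5 lower, Olfr869 and Olfr868, at a median of -0.87. MOR161 split into 3 higher and 2 lower of 5, and MOR170 gave 2 higher and 0 lower of 5. The 36 receptors of the smaller subfamilies gave 16 higher and 8 lower. Set against 14.7% higher and 13.5% lower of all genes, every subfamily of at least 5 members except MOR145 held a larger share of higher genes. Odorant receptors as a whole do so too, with 470 higher of 1091.

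**Figure D3:**
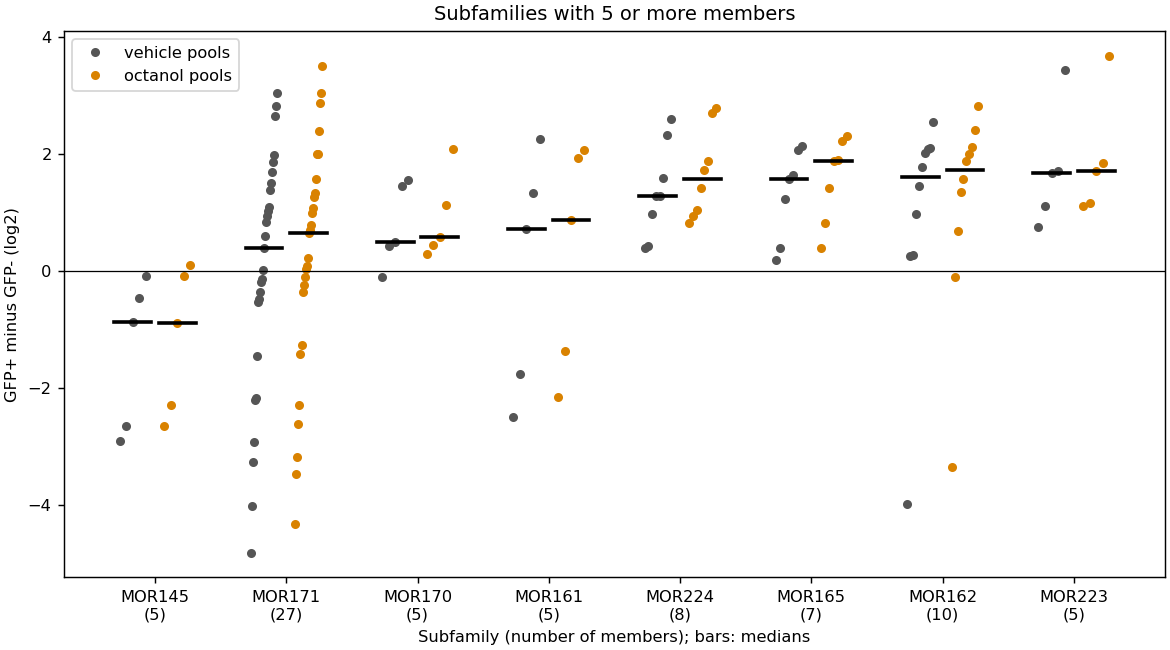
Difference between GFP+ and GFP- cells (log2) for each receptor of the 8 subfamilies with at least 5 members, after vehicle (grey) and octanol (orange), with the median as a bar and the number of members in brackets. MOR145 has its median at -0.87 after vehicle and MOR223 at 1.67, while the 27 receptors of MOR171 run from -4.80 to 3.04.

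Receptors close to each other in the gene order could differ in sign. Receptor genes outside the 108 and other genes lie between some of the members. The RefSeq table holds 49 receptor genes and 6 others within the shorter run and 125 and 17 within the longer. This order skips the 21 measured receptors of chromosome 9 with other numbers. Among 106 pairs of members that follow each other within a run, both passed the threshold after vehicle in 48, of which 28 were both higher, 5 both lower and 15 opposite. In 13 pairs the opposite signs held after both exposures. In 6 of those pairs both receptors belong to 1 subfamily, as with Olfr874, Olfr875, Olfr876 and Olfr877 of MOR161, whose differences in that order were 0.72, -1.75, 2.27 and -2.48 after vehicle and 0.88, -1.37, 2.07 and -2.15 after octanol. Olfr955 (1.98) and Olfr957 (-3.26) of MOR171 alternate in the same way, as do Olfr971 (1.38) and Olfr972 (-4.80). Once values under background were set to that level, the adjusted p of Olfr955 after vehicle was 0.355 and that of Olfr877 after octanol 0.0908 (limma).

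Some of these receptors have nearly the same DNA around the annotated start of the gene. RefSeq start windows of 300 bases, 250 before and 50 after the annotated start, were at hand for 94 of the 108 on build GRCm38.p6. In 66.3% of the windows the annotated start is the ATG itself, so the 50 bases from it on are coding sequence and count in the identity. Such a window may miss the transcription start. Among 4371 pairs of windows the median identity was 52.0%, and 13 pairs, each within 1 subfamily, reached 75% or more. Both receptors passed the threshold after vehicle in 7 of the 13, with 4 pairs both higher and 3 opposite. The opposite pairs include Olfr951 (-0.48) and Olfr954 (0.59). Olfr951 lost its call after vehicle under 10 settings, and its difference after octanol was -0.10. Median identity was 54.2% over the 394 pairs of 1 subfamily.

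The windows of 3 such pairs show how close the sequences are where the receptors went opposite ways or the same way in the sorted cells. They were chosen after their values were seen. The windows are written 5' to 3' in the direction of the gene, and capitals mark bases that differ between the 2 members of a pair or have no partner in their alignment. For the pair Olfr968 (chr9:39772749-39773048, minus strand) and Olfr972 (chr9:39873027-39873326, plus strand) the windows were 88.5% identical.
Olfr968: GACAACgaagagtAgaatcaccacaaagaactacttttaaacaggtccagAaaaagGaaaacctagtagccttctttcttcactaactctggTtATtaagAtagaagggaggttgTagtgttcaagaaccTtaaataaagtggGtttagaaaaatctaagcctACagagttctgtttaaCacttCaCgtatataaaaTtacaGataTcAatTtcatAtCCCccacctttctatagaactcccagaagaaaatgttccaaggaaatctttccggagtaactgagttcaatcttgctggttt
Olfr972: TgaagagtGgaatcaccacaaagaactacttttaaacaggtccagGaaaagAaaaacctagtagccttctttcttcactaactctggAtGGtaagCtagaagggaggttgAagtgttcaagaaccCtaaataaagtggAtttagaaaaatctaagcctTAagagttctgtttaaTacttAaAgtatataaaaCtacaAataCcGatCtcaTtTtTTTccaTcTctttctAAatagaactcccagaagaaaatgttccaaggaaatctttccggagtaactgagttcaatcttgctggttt
For the pair Olfr875 (chr9:37772387-37772686, plus strand) and Olfr876 (chr9:37803639-37803938, plus strand) they were 83.3% identical, and the bases nearest the start are the ones that match.
Olfr875: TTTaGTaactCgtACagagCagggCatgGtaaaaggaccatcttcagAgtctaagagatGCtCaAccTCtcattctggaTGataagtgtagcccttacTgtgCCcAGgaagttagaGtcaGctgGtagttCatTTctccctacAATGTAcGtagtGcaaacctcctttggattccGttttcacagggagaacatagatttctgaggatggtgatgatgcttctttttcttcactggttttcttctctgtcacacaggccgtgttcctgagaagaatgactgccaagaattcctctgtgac
Olfr876: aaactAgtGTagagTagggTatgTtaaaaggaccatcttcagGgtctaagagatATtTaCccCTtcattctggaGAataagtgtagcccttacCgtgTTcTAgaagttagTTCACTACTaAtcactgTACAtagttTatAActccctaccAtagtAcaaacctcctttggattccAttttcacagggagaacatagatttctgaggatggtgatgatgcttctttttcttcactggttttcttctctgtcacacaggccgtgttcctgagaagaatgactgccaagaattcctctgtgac
For the pair Olfr924 (chr9:38847866-38848165, plus strand) and Olfr926 (chr9:38876928-38877227, plus strand) they were 93.7% identical.
Olfr924: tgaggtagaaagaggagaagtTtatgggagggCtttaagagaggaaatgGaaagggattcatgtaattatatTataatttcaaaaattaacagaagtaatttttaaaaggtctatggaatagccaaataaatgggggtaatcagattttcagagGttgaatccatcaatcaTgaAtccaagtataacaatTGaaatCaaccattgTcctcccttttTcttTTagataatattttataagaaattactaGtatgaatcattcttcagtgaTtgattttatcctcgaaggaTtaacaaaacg
Olfr926: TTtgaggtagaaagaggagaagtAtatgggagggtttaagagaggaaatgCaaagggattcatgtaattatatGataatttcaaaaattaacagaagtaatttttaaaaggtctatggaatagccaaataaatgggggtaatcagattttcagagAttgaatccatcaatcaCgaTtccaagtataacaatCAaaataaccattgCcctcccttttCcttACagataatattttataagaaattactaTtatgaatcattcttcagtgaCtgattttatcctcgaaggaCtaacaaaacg

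The paired receptors shown were read by separate probe sets, though signal shared between close copies was not tested. Olfr968 measured 13.26, 12.57, 13.17 and 12.73 in vehicle GFP+ arrays and 12.27, 12.21, 11.41 and 11.72 in GFP- arrays, so it was higher in GFP+ cells by 1.03 (SE 0.20, adjusted p = 0.00398). Its partner Olfr972 was lower by the 4.80 log2 given above. Olfr875 (MOR161-4) measured 7.65, 8.43, 7.57 and 7.54 in vehicle GFP+ arrays and 9.98, 9.39, 9.23 and 9.60 in GFP- arrays. Olfr876 (MOR161-1) measured 12.24, 12.13, 11.63 and 12.23 against 10.06, 9.88, 9.99 and 9.24. Here too 1 receptor was lower (-1.75, SE 0.18) and the other higher (2.27, SE 0.22) in GFP+ cells in all 4 pools.

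Olfr924 (MOR171-27) and Olfr926 (MOR171-8) were both higher in vehicle GFP+ cells, by 1.50 (SE 0.15) and 1.88 (SE 0.24). Olfr924 measured 10.95, 11.63, 10.74 and 10.97 against 9.58, 9.50, 9.47 and 9.73. Olfr926 measured 6.86, 7.30, 6.81 and 6.63 against GFP- values that were all under background. The bound on its rise was at least 1.50-fold, and with values under background raised to it its adjusted p was 0.075. The pair thus shared its direction after vehicle.

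3 short motifs were counted on both strands of the windows. TAATTA, a core that homeodomain proteins such as Lhx2 bind, was present in 23 of the 94 receptors' windows (24.5%), in 18.6% of all odorant receptor windows and in 6.12% of the windows of all genes. TATAAA, the TATA box core, was present in 47.9%, 41.2% and 15.7%. CCCNNGGG, a core of the Olf/Ebf site, was present in 1.06%, 3.07% and 15.4%. Among the receptors with windows, TAATTA was present for 10 of 50 that were higher after vehicle, for 5 of 17 that were lower and for 8 of 27 that did not pass. A match is a description of these letters. In 66.3% of the windows of these receptors the annotated start is the ATG itself, so they may miss the transcription start. Base composition of the windows was not compared between the sets. Whether the sets differ in promoter sites was therefore not tested.

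The octanol pools are other mice and gave the fraction comparison again. After octanol 59 of the 108 were higher and 18 lower in GFP+ than in GFP- cells, against 16.7% higher and 13.2% lower of all genes (29.9% in either direction), with a median of 0.86 (0.14 over all genes) and a range from -4.32 to 3.68. Among the other 983 odorant receptors, 455 were higher and 218 lower, with a median of 0.56. Values did not overlap for 58 higher and 18 lower receptors, against 15.7% and 12.4% of all genes. Of the 108, 54 were higher and 17 lower after both exposures, 0 were opposite and 26 passed after neither. Another 2 were higher and 3 lower after vehicle alone, and 5 higher and 1 lower after octanol alone, which does not show that the exposures differ.

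The same 10 receptors made up the 10 largest rises in both exposures. Olfr981 measured 10.75, 10.75, 9.88 and 10.68 in octanol GFP+ and 7.06, 6.98, 6.77 and 6.54 in octanol GFP- arrays, a difference of 3.68 (SE 0.24, adjusted p = 1.95e-06). Olfr849 followed at 3.57, Olfr854 at 3.53, Olfr970 at 3.51 and Olfr860 at 3.36. Of the 10 largest falls, 9 were shared.

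Olfr972 measured 9.04, 8.79, 9.44 and 8.81 in octanol GFP+ arrays against 13.26, 13.29, 13.41 and 13.40 in octanol GFP- arrays, and was 20.0-fold lower (difference -4.32, SE 0.21). Olfr878 differed by -3.85, Olfr943 by -3.47 and Olfr884 by -3.35. The receptor that replaced Olfr829 among the 10 largest falls was Olfr969 (-2.28, adjusted p = 0.0434), which after vehicle had a difference of -2.21 that did not pass (adjusted p = 0.0511). MOR224 and MOR223 had all members higher after octanol (8 of 8 and 5 of 5), and MOR165 had 6 of 7. The share higher was 16.7% of all genes and 46.3% of the other 983 receptors. MOR145 again gave 0 higher and 2 lower of 5, where 13.2% of all genes were lower.

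A few calls are weak, that of Olfr969 after octanol among them. Olfr917 passed in both exposures with all 16 arrays under background, so its call gives no fold. Olfr933 passed after vehicle, and Olfr937 after octanol, although 1 of the 4 pools went the other way. Leaving out vehicle replicate 1, 2 or 3 took the adjusted p of Olfr933 to 0.0857, 0.105 or 0.0737, and that of Olfr937 was 0.0549 to 0.185 when octanol replicate 1, 2 or 3 or vehicle replicate 1 or 3 was left out. Olfr904 passed after vehicle at 0.89 (adjusted p = 0.0217), and the adjusted p was 0.0672, 0.0745 or 0.0955 when vehicle replicate 1, 2 or 3 was left out. Olfr951 passed after vehicle at -0.48, but its adjusted p in limma was 0.0539 to 0.161 when any vehicle replicate was left out.

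Whether octanol shifts receptors toward the GFP+ fraction is asked by the difference between the octanol and vehicle GFP+ to GFP- ratios. None of the 108 passed (0 of 108, limma, smallest adjusted p = 0.998), nor did any of the 19505 genes (0.0%). When limma was run with trended and robust variance the count of the 108 stayed 0, while 1 of all genes passed. At an unadjusted p under 0.05 there were 10 of the 108, 8 up and 2 down, against 4.54% of all genes. At that level there were 74 of all 1091 receptors and 3 of the 21 other receptors of chromosome 9. The median shift was 0.24 for the 108, 0.17 for all receptors and 0.03 for all genes, and 0.07 for the 108 when each array was centred on the other receptors, which turned the sign for 24 receptors.

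Olfr904 (MOR167-3) had the largest moderated t. Its vehicle values were 9.29, 9.28, 9.45 and 8.43 in GFP+ and 8.37, 8.16, 8.11 and 8.26 in GFP- arrays, and its octanol values 9.92, 9.80, 9.63 and 8.86 in GFP+ and 7.67, 8.79, 7.23 and 6.62 in GFP- arrays. Its ratio was 1.09 higher after octanol (SE 0.34, 95% interval 0.32 to 1.85), with a p of 0.0104 in limma before adjustment and 0.998 after. The octanol GFP- arrays were scattered over more than 2 log2. Olfr850 (-0.79), Olfr888 (-0.74), Olfr881 (0.60) and Olfr922 (0.59) came next. The largest size was 1.34 for Olfr832 (MOR153-1), which was above background on 3 vehicle GFP- arrays and 1 octanol GFP- array and on no GFP+ array, and which is named here because of its size.

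Octanol against vehicle within GFP+ cells gave 0 of 108 past the threshold (limma, smallest adjusted p = 1.00; all genes 0.0%) and 0 with values that did not overlap between the exposures, against 2.21% of all genes. At an unadjusted p under 0.05 there were 2, Olfr910 and Olfr943, against 3.73% of all genes. Olfr910 (MOR165-3) measured 11.52, 11.09, 11.57 and 11.71 after vehicle and 11.69, 11.94, 11.71 and 11.92 after octanol, a difference of 0.34 (95% interval 0.01 to 0.67). Olfr943 differed by 0.68 and was above background on 2 of the 8 arrays. The exposures overlapped for Olfr837 (0.56), Olfr984 (-0.47) and Olfr850 (-0.31) as well. The largest fall in this fraction was 0.47 log2 and the median 0.06.

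Within GFP- cells 0 of 108 passed (limma, smallest adjusted p = 0.982; all genes 0.0%), while 17 had an unadjusted p under 0.05, 16 of them lower after octanol, against 4.58% of all genes and 119 of 1091 receptors. Values did not overlap between exposures for 4 receptors, Olfr922, Olfr937, Olfr960 and Olfr972, against 2.57% of all genes. The median was -0.20 for the 108, -0.16 for all receptors and -0.02 for all genes, and -0.04 for the 108 with arrays centred on the other receptors, where 3 were higher and 3 lower at an unadjusted p under 0.05. With the replicate number as a block the count at that level was 25, of which 23 were lower, and 0 passed after adjustment.

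Olfr922 (MOR161-3) had the largest moderated t, at 7.50, 7.35, 7.43 and 7.27 after vehicle and 6.66, 6.80, 6.95 and 7.19 after octanol. The difference was -0.49 (95% interval -0.79 to -0.18), with a p of 0.00483 in limma before adjustment and 0.982 after. Olfr951 (-0.50), Olfr937 (-0.45), Olfr867 (-0.51) and Olfr875 (-0.54) came next. The mean of the 108 over an array was 8.73 ± 0.16 in vehicle GFP- and 8.53 ± 0.10 in octanol GFP- arrays, and 9.12 ± 0.14 and 9.15 ± 0.11 in the GFP+ arrays of these exposures (SD, n = 4). Set against the mean of the other receptors on each array, it was -0.88 and -0.92 in GFP- cells and -0.64 and -0.62 in GFP+ cells.

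**Figure D4:**
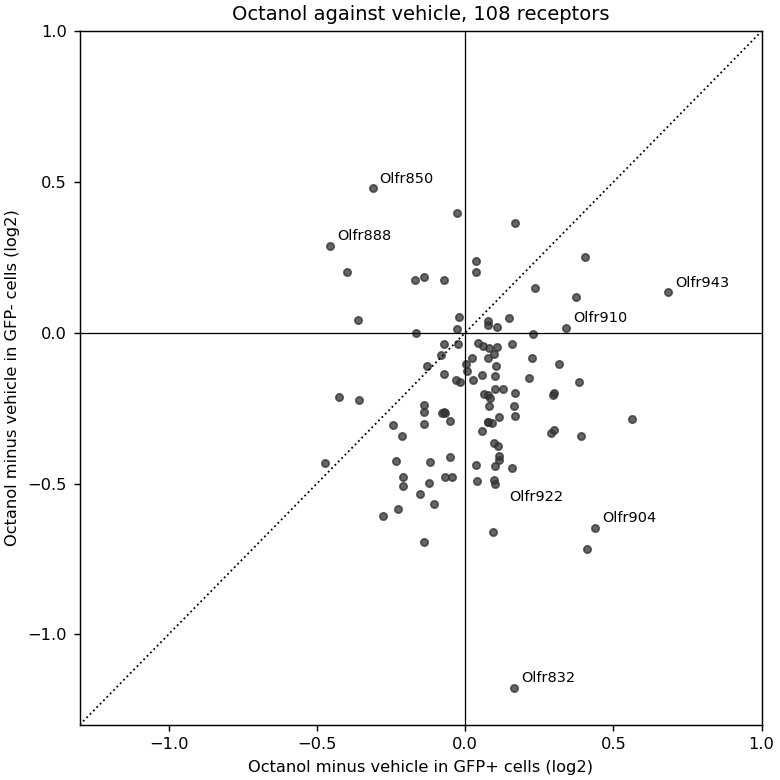
Octanol minus vehicle (log2) in GFP- cells (vertical) against the same in GFP+ cells (horizontal) for the 108 receptors, each a difference of means of 4 arrays. The dotted diagonal marks equal shifts in both fractions, most points lie below it, and the median is 0.06 across and -0.20 down. None passed after adjustment.

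Replicates of a fraction did not vary equally for all receptors. The pooled SD within groups exceeded 0.9 in GFP+ arrays for 10 of the 108, whose median was 0.41 in GFP+ and 0.34 in GFP- arrays. Olfr969 (MOR171-7) was the most variable, at 9.44, 12.83, 7.54 and 9.85 in vehicle GFP+ and 10.39, 11.18, 8.24 and 9.76 in octanol GFP+ arrays, while its vehicle GFP- arrays held to 12.01, 12.14, 12.23 and 12.10. In vehicle pool 2 it was higher in GFP+ than in GFP- cells, against the direction of the other 7 pools. Without vehicle replicate 2 its difference after vehicle was -3.17 (adjusted p = 0.00552), and its difference after octanol did not pass when any of 5 of the 8 replicates was left out. Its adjusted p after octanol was 0.115, 0.166 and 0.102 without octanol replicates 1, 3 and 4, where the difference was -2.31, -1.65 and -2.31, and 0.0585 and 0.0567 without vehicle replicates 1 and 4.

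The 14 receptors with the largest spread in GFP+ arrays were compared on that array. Olfr969, Olfr957, Olfr930, Olfr878, Olfr884 and Olfr830 were highest in vehicle GFP+ replicate 2, while Olfr868, Olfr869, Olfr859, Olfr872, Olfr853, Olfr986 and Olfr981 were lowest there. Olfr955 was neither, at 7.28 in replicate 2 and 7.46 in replicate 1, its highest. Olfr868 (MOR145-4) measured 9.10, 8.05, 10.04 and 10.55 in vehicle GFP+ and 8.97, 8.24, 10.63 and 10.58 in octanol GFP+ arrays, with replicate 2 lowest in both exposures. Olfr869 (MOR145-6), the next member, measured 6.96, 4.91, 7.69 and 7.79 after vehicle and 5.89, 6.66, 7.94 and 8.35 after octanol. Receptors picked for their spread have an extreme array by choice, so this is a description.

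Markers of the dorsal zone moved with that array. Acsm4, a dorsal zone marker, was 14.72 in vehicle GFP+ replicate 2 and 14.03, 13.80 and 13.79 in the other 3. The mean of the 4 dorsal zone markers was 13.74 there against 13.05 to 13.29, and the mean of the 5 ventral zone markers was 12.49 against 12.83 to 13.07. In octanol GFP+ replicate 2 the dorsal mean was 13.48 against 13.21 to 13.38, while the ventral mean, 12.80, lay within the 12.65 to 12.86 of the others. The part of zone in the spread of these receptors was not tested. Without vehicle replicate 2 the comparison of fractions after vehicle gave 53 higher and 23 lower receptors.

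**Figure D5:**
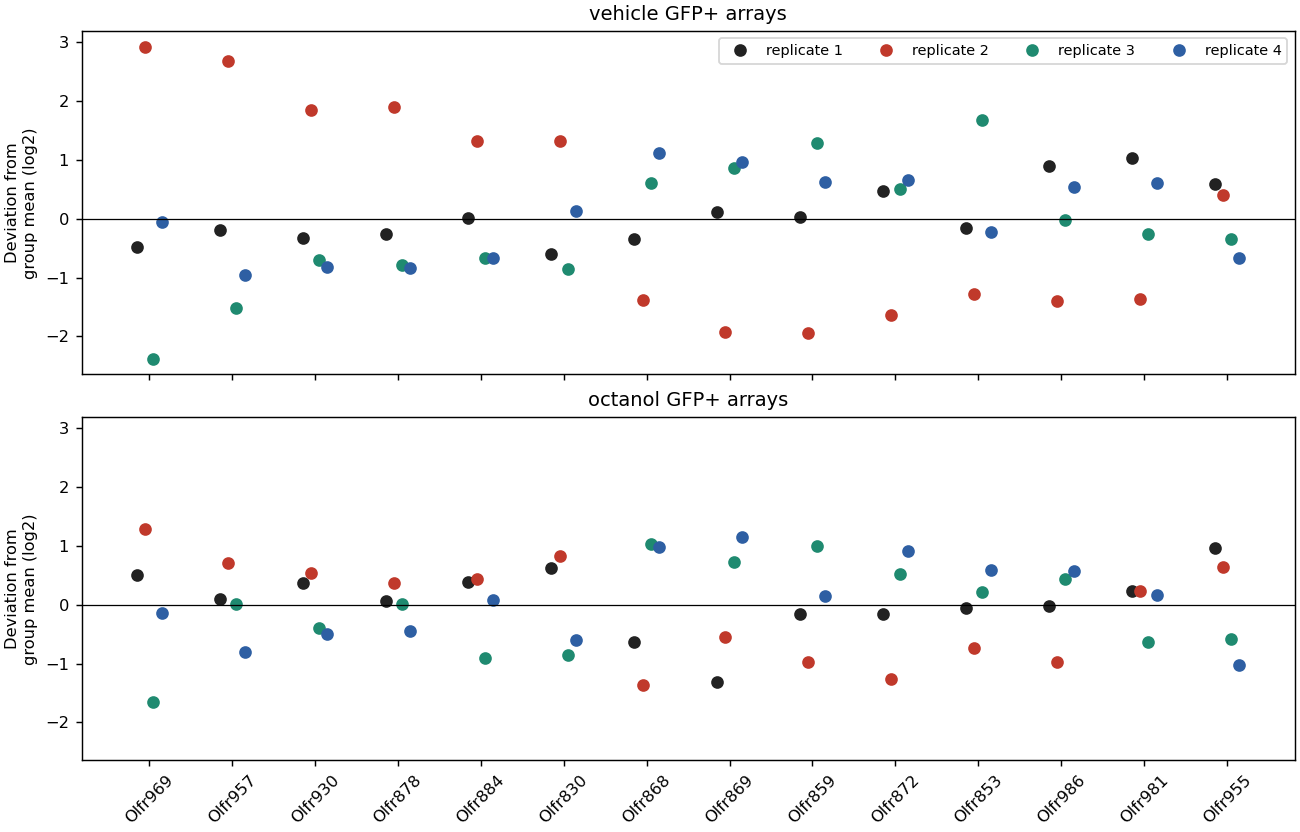
Deviation of each GFP+ array from the mean of its group (log2) for the 14 receptors with the largest spread in GFP+ arrays, after vehicle (top) and octanol (bottom), with 1 colour for each replicate. Replicate 2 is highest for the 6 receptors on the left after vehicle and lowest for the next 7, and for Olfr955, at the right, it is neither.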

How the data were processed

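The authors deposited log2 signals from Affymetrix Expression Console, per the submitters' processing notes. The sources used here do not give its version or settings, and the values were not scaled again. Probe sets with exactly 1 gene symbol gave 19505 genes, each found through its Entrez number in RefSeq's gene table for GRCm38.p6, which served for names and gene order.

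GFP+ against GFP- after vehicle, after octanol, and the difference between them were fitted with limma 3.58.1 (R 4.3.3, lmFit and eBayes, moderated t, 2-sided) on 16 arrays with a fixed term for the pool, and octanol against vehicle on the 8 arrays of a fraction. Benjamini-Hochberg adjustment ran over all genes, with a threshold of 0.05. The fits were tested on simulated data. That the fractions of 1 exposure and replicate number come from the same mice was inferred from 24 mice in pools of 3, and residuals of the 2 fractions of a pool correlated at 0.0779 to 0.222. An "at least" fold raises values under background to it. The number of arrays limits the precision.

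Named receptors are the 10 largest significant rises and falls with 1 direction in all 4 pools, the 5 of largest moderated t for each octanol comparison and the 5 of highest mean in each vehicle fraction. Others were named after their values were seen, among them the window pairs and the variable receptors. Receptors and marker lists were chosen with earlier results of these data known. Identity of proteins was not analysed here.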

Additional observations from a re-analysis of the deposited data

Results flagged for a closer look

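An array whose value lay far from the other 3 of its group, by Dixon's criterion at the 95% level, was found for 10 of the 156 groups of the 39 named receptors and for 28 of the 432 groups of all 108 (6.48%), where chance gives about 1 in 20. In vehicle GFP+ cells, Olfr875 was 8.43 in replicate 2 against 7.54 to 7.65 in the others, Olfr904 was 8.43 in replicate 4 against 9.28 to 9.45, and Olfr951 was 6.73 in replicate 1 against 6.62. In vehicle GFP- cells, Olfr868 was 12.49 in replicate 4 against 11.90 to 11.98, and Olfr984 was 12.01 in replicate 2 against 11.41 to 11.50. In octanol GFP+ cells, Olfr981 was 9.88 in replicate 3 against 10.68 to 10.75. In octanol GFP- cells, Olfr869 was 9.56 in replicate 2 against 9.93 to 9.98, Olfr878 was 12.86 in replicate 3 against 12.29 to 12.37, Olfr910 was 9.14 in replicate 4 against 10.09 to 10.23, and Olfr919 was 8.09 in replicate 3 against 7.08 to 7.19.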

How the results depend on the processing

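Counts of receptors past the threshold after vehicle and after octanol stayed within 1.5 times those reported in every alternative run, and the 0 of the octanol comparisons stayed 0. Over settings, 48 to 68 receptors were higher and 16 to 23 lower after vehicle, and 52 to 70 and 15 to 23 after octanol. Centring arrays on all genes moved the median of all genes from 0.13 to 0.46 after vehicle and from 0.14 to 0.41 after octanol, and centring on other receptors to -0.01 and -0.17. Centred on all genes, 81.5% of the receptors passed in each exposure, against 75.6% (vehicle) and 68.8% (octanol) of all genes. Centred on other receptors, 74 of the 76 calls after vehicle and 70 of the 77 after octanol were shared. With values under background raised to it, 12 and 11 calls were lost. Leaving out 1 replicate gave 52 to 57 higher and 18 to 23 lower after vehicle, and 53 to 61 and 17 to 18 after octanol.

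With no replicate block, 55 were higher and 22 lower after vehicle and 59 and 18 after octanol, and the ratio had 0 receptors past the threshold and 5, not 10, at an unadjusted p under 0.05. With the replicate block, octanol against vehicle gave 0 past the threshold and 4 (GFP+) and 25 (GFP-) at an unadjusted p under 0.05. Exposures of 1 number correlated at 0.0582 to 0.230 in GFP+ and 0.0719 to 0.332 in GFP- residuals, with 3 of 4 above 0.1 in each. As 1 pair in each fraction was not, the numbers were not taken to pair the exposures, which remains uncertain, since the fractions of a pool, blocked because they were inferred to share mice, correlated no more. At an unadjusted p under 0.05 the counts were not stable and ran over settings from 5 to 13 for the ratio, 0 to 6 in GFP+ and 6 to 25 in GFP- cells. The count of 17 in GFP- cells was 9 without octanol replicate 4, 9 with values under background raised to it and 6 with arrays centred on other receptors. Of 51 named receptors followed singly in the comparison of fractions, 12 lost or gained the threshold under some setting, namely Olfr832, Olfr874, Olfr877, Olfr904, Olfr917, Olfr926, Olfr933, Olfr937, Olfr951, Olfr955, Olfr960 and Olfr969, and the cause was not tested. Signal near background limits the 29 receptors with some and the 6 with all arrays under it.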
